A study of Homo sapiens with 25 samples.

Results

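The regions described here carried a peak of acetylated lysine 27 of histone H3 (H3K27ac) in NB4 cells kept in DMSO and in cells given MC_2580, and had no H3K27ac peak after retinoic acid (RA) at 1 µM or after MC_2580 with RA at 0.01 µM. They were found by merging the peaks of the 5 H3K27ac lists wherever they overlapped by at least 1 base. A merged region qualified if it overlapped a peak of the DMSO and of the MC_2580 list and no peak of the RA 1 µM list or of the combination list, whatever the RA 0.01 µM list held. This gave 769 regions of 64202 merged ones, called RA-silenced regions below. The name means only that no peak was called, not that acetylation was absent. They were set against the 16174 regions with an H3K27ac peak in DMSO, MC_2580, RA 1 µM and the combination, called retained regions.

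H3K27ac is placed by the acetyltransferases CBP and p300 and marks active enhancers and promoters. H3K4me1 and H3K4me2 lie on enhancers and around promoters, and H3K4me3 lies mainly on promoters. An enhancer that has H3K4me1 and lacks H3K27ac is commonly called primed. LSD1 (KDM1A) removes methyl groups from mono- and dimethylated H3K4, and the repressor GFI1 recruits it to DNA. RA binds nuclear receptors that switch from repression to activation on binding it, and in acute promyelocytic leukemia it drives the cells to mature.

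NB4 is an established human leukemia cell line, of the acute promyelocytic type. The groups were cells treated for 24 h with MC_2580 plus RA at 0.01 µM (the combination), with MC_2580 alone, an LSD1 inhibitor (dose not given in the sources used here), with RA alone at 0.01 µM or at 1 µM, or with the solvent DMSO. Chromatin immunoprecipitation with sequencing was run for H3K27ac, H3K4me1, H3K4me2 and H3K4me3 in these 5 conditions, for LSD1 with MC_2580 and in DMSO, and for GFI1 in untreated cells. With 1 library per antibody and condition, conditions are compared without any measure of the spread between replicates. Regions are not replicates of a condition, and the 95% intervals below cover counting error only.

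Sequencing depth is unknown, and the H3K27ac lists ran from 24552 peaks (MC_2580) to 55793 (RA at 0.01 µM), with 32789 in DMSO, 38808 for RA at 1 µM and 41191 in the combination. The score is the authors' significance value for a peak, with a floor of 50 and a cap near 3100. It ranks peaks within a list, so that a higher score in one list than in another is not read as a change. The LSD1 lists start well above that floor, and higher with MC_2580 than in DMSO, where the lowest score is 234.04, so a filter unlike in the 2 lists, and not described in the sources used here, came before deposit. The H3K4me3 sample of the combination names RA at 1 µM in its title and 0.01 µM in its treatment field, and was grouped by the treatment field. Positions are on hg18. Genes and sequence at these positions were not analysed here.

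RA-silenced regions were mostly weak H3K27ac regions. Among the 18153 regions with a peak in both MC_2580 and DMSO, no peak was called with RA at 1 µM in 1408 (7.76%), in the combination in 1340 (7.38%) and in neither in the 769 (4.24%). A further 639 lacked a peak with RA at 1 µM only and 571 in the combination only. The highest H3K27ac score in a region had a median of 85.7 with MC_2580 and 127 in DMSO in RA-silenced regions, against 425 and 854 in retained regions. The share that was RA-silenced was 20.4% (306 of 1502) where the DMSO score was 50 to under 100, 10.6% at 100 to under 200, 4.46% at 200 to under 500, 1.34% at 500 to under 1000, and 0.280% (21 of 7487) at 1000 and over. These values chose the regions and are given as a description.

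At the edge of the rule, 31 RA-silenced regions had scores under 60 in both MC_2580 and DMSO, and 236 had both under 100. Just outside it lay 173 regions whose highest RA 1 µM or combination score was under 60, the lowest of them at 50.2. In 5 RA-silenced regions the MC_2580 and DMSO peaks shared no base. The number of regions rests on such thresholds. It was 238 when the peaks of MC_2580 and DMSO had to score at least 100 and the lists with RA were used in full, and 1523 when the 5 lists were cut to the length of the shortest. Requiring that peaks cover at least 50% of a region gave 1213.

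RA at 0.01 µM alone divided the set. Of the 769 regions, 284 had an H3K27ac peak with RA at 0.01 µM and 485 had none. Those peaks scored from 50.6 to 953 with a median of 164, and 76 of them scored under 100. The low-dose list is the longest of the 5, and in it 11.0% of the 18153 regions had no peak. Silenced therefore describes the higher dose and the combination, and holds for the lower dose in 485 of the 769.

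The 10 regions ranked highest by the lower of their MC_2580 and DMSO H3K27ac scores show what the group looks like where calling is least in doubt. The first, chr8:104260527-104270410, had H3K27ac scores of 1823 with MC_2580 and 3100 in DMSO and no peak in any list with RA. H3K4me1 was called there in every condition, with scores of 1648 in DMSO, 498 with RA at 0.01 µM, 682 at 1 µM, 1456 in the combination and 1611 with MC_2580. H3K4me2 was called in all conditions but RA at 1 µM, and H3K4me3 only with MC_2580, at 156. LSD1 (714 with MC_2580, 351 in DMSO) and GFI1 (108) also had peaks.

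The second, chr10:24196872-24202816, had H3K27ac scores of 1765 with MC_2580 and 1953 in DMSO and H3K4me1 in all 5 conditions, while LSD1 was called in DMSO (250) and not with MC_2580. Its H3K4me2 was called with MC_2580 only, at 68.0. The third, chr20:19158096-19171463, is the widest of all 769 at 13368 bases, and the 3 H3K4 marks were called on it in every condition although H3K27ac was called with MC_2580 (1526) and in DMSO (2041) only. A second region of chromosome 20, chr20:6413699-6422716, likewise kept all 3 marks throughout, with LSD1 at 2058 with MC_2580 and 890 in DMSO, and GFI1 at 249. Both regions kept every H3K4 call, and of the 4 histone marks only the acetylation call was missing with RA at 1 µM.

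The other 6 were chr2:1770155-1780549, chr11:104037512-104048398, chr9:73788532-73798758, chr1:92752197-92757340, chr6:132017052-132025731 and chr4:80739617-80746928. The region on chromosome 2 is the only one of the 10 with an H3K27ac peak at the low dose, at 331. The region on chromosome 9 is the only one that lost its H3K4me1 call with RA alone. It scored 273 in DMSO, had no peak with RA at 0.01 or 1 µM, and scored 246 in the combination and 484 with MC_2580. On chromosomes 11 and 6 no H3K4me2 peak was called in any condition, and H3K4me1 was called in all 5.

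**Figure D1:**
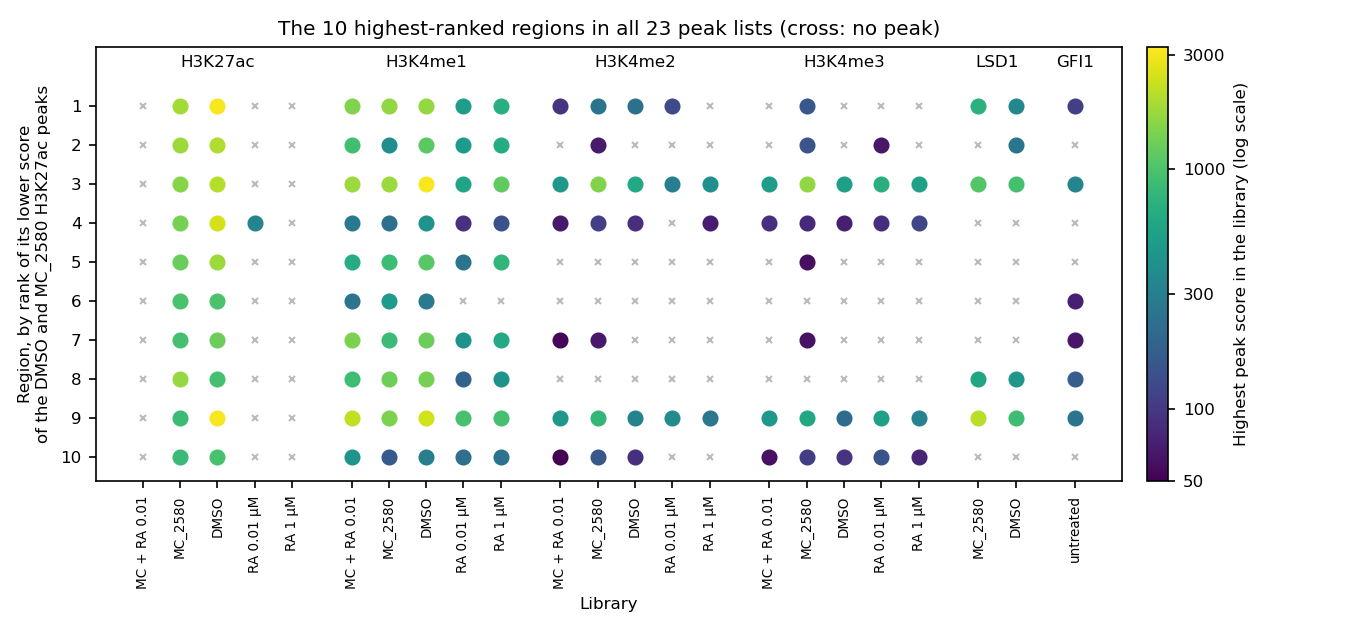
Highest peak score (colour, log scale) of the 10 highest-ranked RA-silenced regions (rows, by rank) in each of the 23 peak lists (columns, grouped by antibody), with a cross where no peak was called. H3K27ac is missing from the combination and RA 1 µM columns by the rule that chose the regions, while H3K4me1 is called in every condition in all rows but the sixth, the region on chromosome 9.

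H3K4me1 mostly stayed where H3K27ac was no longer called. Of the 769 regions, 74.6% (71.4 to 77.7%) had an H3K4me1 peak in DMSO, 64.1% with RA at 0.01 µM, 67.8% at 1 µM, 73.9% in the combination and 74.9% with MC_2580. In 468 regions H3K4me1 was called in all 5 lists and in 163 in none, patterns that were not counted in other regions. Of the 574 regions marked in DMSO, 514 (89.5%, 86.8 to 91.9%) were still marked with RA at 1 µM and 548 (95.5%, 93.4 to 97.0%) in the combination. For comparison, 6.88% of all merged regions with H3K4me1 in DMSO had none with RA at 1 µM and 3.45% had none in the combination. Among those with an H3K27ac peak in MC_2580 and DMSO, these shares were 1.55% with RA at 1 µM and 0.702% in the combination. The call was thus missing at 60 RA-silenced regions with RA at 1 µM and at 26 in the combination, more than at other regions with acetylation calls in both.

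Set against retained regions, H3K4me1 was kept less often. The share kept with RA at 1 µM was 89.5% in RA-silenced and 99.1% in retained regions, a difference of -9.51 percentage points (-12.3 to -7.26). In the combination it was 95.5% against 99.6%, a difference of -4.11 points (-6.14 to -2.68). Between the 2 treatments, 508 regions kept H3K4me1 in both, 40 in the combination only, 6 with RA at 1 µM only and 20 in neither. The H3K4me1 list of RA at 1 µM covered 179 Mb and that of the combination 211 Mb, and its part in the 40 against 6 was not tested.

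Within regions, H3K4me1 covered less of the width with RA. It covered 55.1% of the bases of RA-silenced regions in DMSO, 36.8% with RA at 0.01 µM and 40.6% at 1 µM, ratios to DMSO of 0.668 and 0.738. In the combination it covered 47.9% (ratio 0.870) and with MC_2580 56.0% (1.02). The ratios in retained regions were 0.860 with RA at 0.01 µM, 0.931 at 1 µM, 1.01 in the combination and 1.01 with MC_2580. A region can therefore keep its call and have less of its width under it.

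H3K4me2 was the mark that most often disappeared with the acetylation call. It was called in 28.7% (221) of RA-silenced regions in DMSO, 18.6% with RA at 0.01 µM, 20.2% at 1 µM, 25.5% in the combination and 38.8% with MC_2580. Of the 221 marked in DMSO, 131 (59.3%) kept the call with RA at 0.01 µM, 134 (60.6%, 53.9 to 67.1%) at 1 µM, 163 (73.8%, 67.4 to 79.4%) in the combination and 199 (90.0%) with MC_2580. Over all merged regions with H3K4me2 in DMSO, 10.6% had none with RA at 0.01 µM, 10.4% at 1 µM, 6.77% in the combination and 5.14% with MC_2580. Among regions with both H3K27ac peaks the shares were 6.97% with RA at 1 µM and 3.53% in the combination. The difference between RA-silenced and retained regions was -33.9 points (-40.5 to -27.7) with RA at 1 µM, where retained regions kept 94.5%. In the combination it was -23.6 points (-29.8 to -18.2), against 97.4% in retained regions. The 1210 regions without an H3K27ac peak in 1 of the 2 treatments lay nearer the RA-silenced ones. H3K4me2 was kept there in 65.3% with RA at 1 µM and 82.0% in the combination. They pool 639 regions without a peak in RA at 1 µM only and 571 in the combination only. Each share thus mixes regions with and without the acetylation call in that treatment.

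At most RA-silenced regions that lost H3K4me2 in both treatments, H3K4me1 was kept. Neither RA at 1 µM nor the combination had an H3K4me2 peak at 50 of the 221 regions, and at 40 of these 50 H3K4me1 was kept in both. A further 37 regions kept H3K4me2 in the combination only and 8 with RA at 1 µM only. In retained regions the same split was 458 and 68, with 299 of 13864 in neither. For comparison, 508 of the 574 RA-silenced regions with H3K4me1 in DMSO kept it in both treatments. How often H3K4me1 stayed at retained or other merged regions that lost H3K4me2 was not counted, so the 40 of 50 are a description only.

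H3K4me3 was less frequent in RA-silenced regions than in the other merged regions in DMSO, and not detectably so with MC_2580. It was called in 15.9% (122) in DMSO, 17.9% with RA at 0.01 µM, 15.2% at 1 µM, 19.0% in the combination and 31.2% with MC_2580, while retained regions had it in 74.3% in DMSO. Of all other merged regions 25.4% had it in DMSO, a difference of -9.58 points (-12.0 to -6.81), and 31.4% with MC_2580, a difference of -0.161 points (-3.36 to 3.22). Of the 122, 87 (71.3%, 62.4 to 79.1%) kept the call with RA at 1 µM and 102 (83.6%, 75.8 to 89.7%) in the combination, against 98.5% (RA at 1 µM) and 98.8% (combination) in retained regions. The difference was -27.2 points (-35.8 to -19.9) with RA at 1 µM and -15.2 points (-22.8 to -9.68) in the combination. Regions without an H3K27ac peak in 1 of the 2 treatments, pooled as above, lay between, at 86.1% (RA at 1 µM) and 89.1% (combination) kept. Over all merged regions with H3K4me3 in DMSO, 3.04% had none with RA at 1 µM and 2.63% had none in the combination, and among those with both H3K27ac peaks 2.05% had none with RA at 1 µM and 1.54% none in the combination. Of the 122 regions, 19 had none in either, 16 kept it in the combination only and 1 with RA at 1 µM only. The combination values carry the doubt over that sample's dose.

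**Figure D2:**
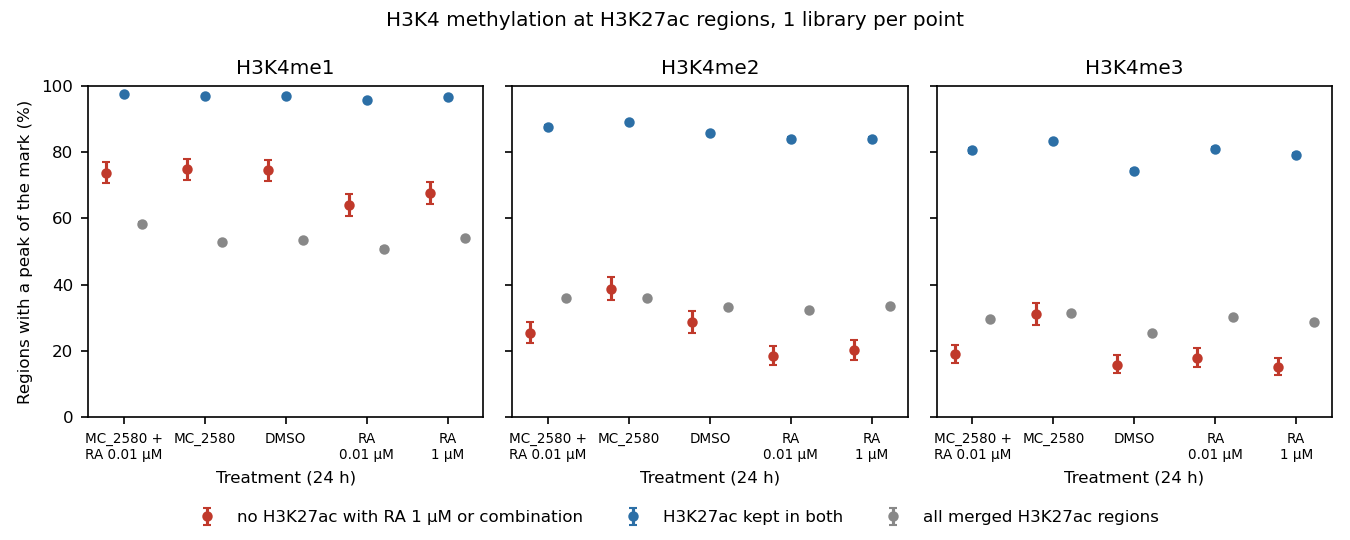
Share of regions (%) with a peak of H3K4me1, H3K4me2 or H3K4me3 in each treatment, for the 769 RA-silenced regions (red), the 16174 retained regions (blue) and all 64202 merged regions (grey), with 95% exact binomial intervals and 1 library per point. RA-silenced regions have H3K4me1 between 64.1% and 74.9%, far above their H3K4me2 and H3K4me3, and their H3K4me2 and H3K4me3 shares are highest with MC_2580.

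Calls that were lost mostly belonged to weak peaks in DMSO. The H3K4me1 score in DMSO had a median of 141 at the 60 RA-silenced regions that lost the call with RA at 1 µM and 560 at the 514 that kept it. For H3K4me2 these medians were 87.3 and 266, and for H3K4me3 70.3 and 192. At equal DMSO scores the gap to retained regions remained among weak peaks and narrowed among strong ones. H3K4me2 peaks scoring 50 to under 100 in DMSO were kept with RA at 1 µM in 32.5% of 83 RA-silenced regions and in 55.5% of 1030 retained ones. At 100 to under 200 the shares were 54.0% of 50 and 79.4% of 1116, and at 500 and over 97.9% of 48 and 100% of 10091. H3K4me3 in RA-silenced regions did not climb in every band with RA at 1 µM, as it was kept in 20 of 20 regions at 200 to under 500 and in 21 of 24 (87.5%, 67.6 to 97.3%) at 500 and over.

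H3K4me1 was kept more often in each higher band. With RA at 1 µM it was kept in 41.9% of 31 RA-silenced and 64.7% of 207 retained regions at scores of 50 to under 100, and in 96.9% of 292 and 99.9% of 12394 at 500 and over. Averaged over such score bands, the H3K4me2 difference with RA at 1 µM was -17.2 points (-23.0 to -11.8) and that in the combination -14.2 points (-19.8 to -9.34). The H3K4me1 difference with RA at 1 µM was -7.22 points (-9.80 to -5.29). For H3K4me3 it was -21.2 points (-29.6 to -14.6) with RA at 1 µM and -10.5 points (-18.4 to -5.40) in the combination. These bands were chosen after seeing the data.

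**Figure D3:**
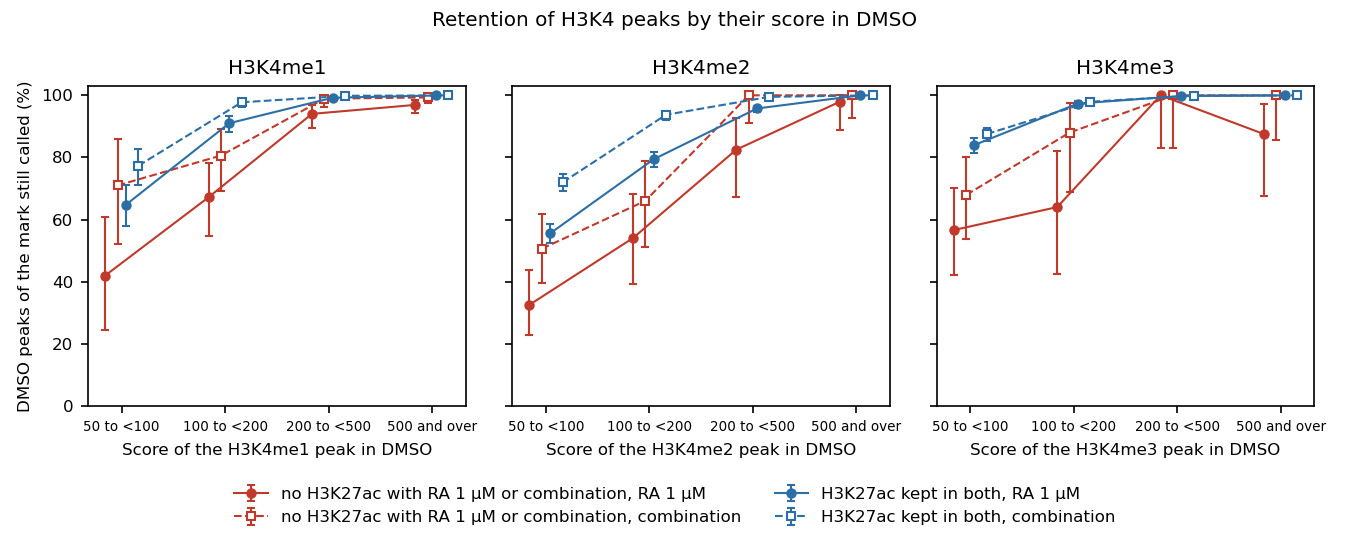
Share (%) of DMSO peaks of each H3K4 mark still called with RA 1 µM (filled circles, solid lines) and in the combination (open squares, dashed lines), by the score of the peak in DMSO, in RA-silenced (red) and retained (blue) regions, with 95% exact binomial intervals. Retention is higher at scores of 500 and over than at 50 to under 100 in both sets of regions, and the red points lie below the blue ones in the lowest score band of each mark, 32.5% against 55.5% for H3K4me2 with RA 1 µM.

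Grouped by the H3K4 marks called in DMSO, 339 RA-silenced regions had H3K4me1 only, 122 had H3K4me1 and H3K4me2 without H3K4me3, 122 had H3K4me3 with or without the others, 9 had H3K4me2 only and 177 had no H3K4 peak. Of the 339 regions with H3K4me1 only, 259 were in that state with RA at 1 µM and 277 in the combination, while 47 had no H3K4 peak with RA at 1 µM and 21 none in the combination. Of the 122 with H3K4me1 and H3K4me2, 55 kept both with RA at 1 µM and 49 had H3K4me1 only. In the combination 58 kept both, 38 had H3K4me1 only and 21 had an H3K4me3 peak. With RA at 1 µM 8 had one. Such changes of state were not counted in retained or other merged regions, so these counts are a description only.

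With MC_2580, H3K4me2 and H3K4me3 were called on RA-silenced regions that had no such peak in DMSO. Of the 548 RA-silenced regions without H3K4me2 in DMSO, 99 (18.1%, 14.9 to 21.5%) had it with MC_2580, 33 (6.02%) in the combination, 12 (2.19%) at the low and 21 (3.83%) at the high RA dose. Over all merged regions the shares were 6.61% with MC_2580, 7.52% in the combination, 3.81% at the low and 5.75% at the high dose. Over regions with an H3K27ac peak in both MC_2580 and DMSO it was 28.2% with MC_2580. New H3K4me3 appeared with MC_2580 at 122 of 647 (18.9%, 15.9 to 22.1%), in the combination at 44 (6.80%), at the low dose at 37 (5.72%) and at the high dose at 30 (4.64%). Over all merged regions the shares were 8.33% with MC_2580, 6.77% in the combination, 7.18% at the low and 5.64% at the high dose. Over those with both H3K27ac peaks the share with MC_2580 was 32.0%. Retained regions had new H3K4me2 with MC_2580 in 32.4% and new H3K4me3 in 35.6%, so that RA-silenced regions differed from them by -14.4 points (-17.9 to -10.4) for H3K4me2 and -16.7 points (-19.9 to -13.2) for H3K4me3. For 64 of the 99 and 61 of the 122, MC_2580 was the only one of the 5 lists with the mark, a pattern not counted in other regions. The MC_2580 lists of both marks were the longest of their 5, with 50736 H3K4me2 peaks against 40598 in DMSO and 29872 H3K4me3 peaks against 21688 in DMSO, and the part of list length was not tested.

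A group of 142 RA-silenced regions (18.5%, 15.8 to 21.4%) had no H3K4 peak in any of the 15 H3K4 lists. This held for 1.37% of retained regions, a difference of 17.1 points (14.5 to 20.0), and for 35.6% of all merged regions. It also held for 14.3% of the 1210 regions without an H3K27ac peak in 1 of RA at 1 µM and the combination. These 142 are acetylation calls with no H3K4 methylation call beside them. They made up 50 of the 485 regions without an H3K27ac peak at the low dose (10.3%) and 92 of the 284 with one (32.4%), a difference of -22.1 points (-28.2 to -16.1).

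The 2 groups defined by the low dose differed in more than this. H3K4me1 was called in DMSO at 84.1% of the 485 regions without a low-dose H3K27ac peak and at 58.5% of the 284 with one, a difference of 25.7 points (19.1 to 32.2). Where it was called in DMSO, it was kept with RA at 1 µM in 93.4% of those without and 80.1% of those with a low-dose H3K27ac peak, a difference of 13.3 points (7.20 to 20.3), and of 6.84 points (2.44 to 13.4) within bands of its own DMSO score. H3K4me2 went the other way. Of the regions with it in DMSO, it was kept with RA at 1 µM in 43.1% of 130 without a low-dose H3K27ac peak and 85.7% of 91 with one, a difference of -42.6 points (-52.6 to -30.5). Within bands of the H3K4me2 score in DMSO the difference was -34.5 points (-45.1 to -20.8).

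With RA at 0.01 µM itself H3K4me2 was kept in 49.2% of the regions without and 73.6% of those with a low-dose H3K27ac peak, a difference of -24.4 points (-36.0 to -11.4). In the combination it was kept in 66.2% of those without and 84.6% of those with one, or -18.5 points (-28.9 to -6.86). The combination difference within score bands was -8.73 points (-20.3 to 4.89), an interval that includes 0. H3K4me3 was kept with RA at 1 µM in 71.6% of 81 regions without and 70.7% of 41 with one, a difference of 0.873 points (-14.9 to 18.4). Set against retained regions, the 485 regions alone gave a larger H3K4me2 difference with RA at 1 µM, -51.5 points, and a smaller H3K4me1 difference, -5.67 points. In the combination H3K4me1 was kept in 96.6% of regions without and 92.8% of those with a low-dose H3K27ac peak, a difference of 3.798 points (0.0137 to 8.96), and of 0.890 points (-1.78 to 6.001) within score bands, which includes 0. With RA at 1 µM the 485 regions without acetylation calls at either RA dose thus kept H3K4me1 more often, and H3K4me2 less often, than the 284.

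**Figure D4:**
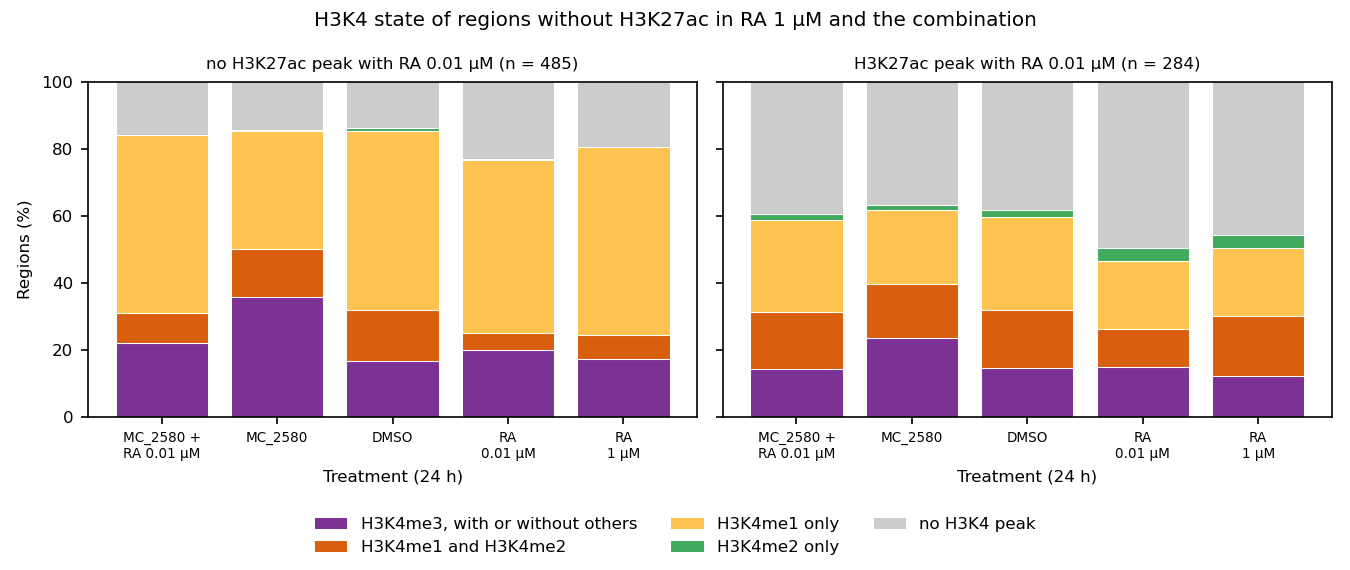
Stacked shares (%) of RA-silenced regions by their combination of H3K4 peaks in each treatment, for the 485 regions without an H3K27ac peak at RA 0.01 µM (left) and the 284 with one (right). H3K4me1 alone is the most frequent state on the left in the combination, in DMSO and at both RA doses, while regions with no H3K4 peak take a larger part on the right in every treatment.

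Loss of H3K4me1 or H3K4me3 in both treatments touched a minority of RA-silenced regions and was more frequent there than in retained ones. Neither treatment kept H3K4me1 at 20 of 574 RA-silenced regions with it in DMSO (3.48%), against 0.338% of retained regions, a difference of 3.15 points (1.92 to 4.98). For H3K4me3 it was 19 of 122 (15.6%) against 0.674%, a difference of 14.9 points (9.53 to 22.4). Loss in both treatments was not counted over all merged regions. Of those with the mark in DMSO, H3K4me1 was missing in 6.88% with RA at 1 µM and in 3.45% in the combination. H3K4me3 was missing in 3.04% with RA at 1 µM and in 2.63% in the combination. With a peak required in MC_2580 too, 11 regions had H3K4me1 with MC_2580 and in DMSO and neither with RA at 1 µM nor in the combination. The highest-ranked was chr22:48364875-48370662, with H3K27ac scores of 208 with MC_2580 and 231 in DMSO and H3K4me1 scores of 96.9 with MC_2580 and 125 in DMSO. The next, chr16:29861569-29863761, had H3K4me1 at 174 with MC_2580 and 160 in DMSO and no other peak than H3K27ac in any list. For H3K4me3 there were 15 such regions, led by chr21:45495303-45504124. H3K4me3 scored 167 with MC_2580 and 137 in DMSO there and was not called in any list with RA, while H3K4me2 scored between 1394 and 3100 in all 5 conditions. At chr21:31429132-31433473 H3K4me3 scored 96.3 with MC_2580 and 76.8 in DMSO, was not called with RA, and left H3K4me1 in all 5 conditions. Regions like these 11 and 15 were not counted outside the RA-silenced set.

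LSD1 and GFI1 were less frequent on RA-silenced regions than on retained ones. Set against all other merged regions, most of which lacked an H3K27ac peak in MC_2580 or DMSO, GFI1 was more frequent on RA-silenced ones. LSD1 had a peak in 149 regions with MC_2580 (19.4%, 16.6 to 22.4%) and in 105 in DMSO (13.7%, 11.3 to 16.3%), against 67.5% of retained regions with MC_2580 and 42.8% in DMSO. GFI1 had a peak in 171 (22.2%, 19.3 to 25.3%), against 41.5% of retained regions. The 1210 regions without an H3K27ac peak in 1 of RA at 1 µM and the combination had GFI1 in 30.7%. LSD1 was called in 31.0% of them with MC_2580 and 24.0% in DMSO. Against all other merged regions the LSD1 difference was -3.75 points (-6.41 to -0.785) with MC_2580, where they had 23.1%, and -0.998 points (-3.26 to 1.62) in DMSO, where they had 14.7%, an interval that includes 0. GFI1 was more frequent in RA-silenced regions than in those, which had 17.4%, by 4.82 points (2.01 to 7.91). Median width was 3439 bases in RA-silenced and 2696.5 in all merged regions. The part of width, and of the required H3K27ac peaks, in that difference was not tested. The difference between RA-silenced and retained regions was -29.2 points (-31.5 to -26.4) for LSD1 in DMSO, -48.1 points (-50.8 to -45.1) for LSD1 with MC_2580 and -19.3 points (-22.2 to -16.1) for GFI1. None of these 3 lists had a peak at 518 RA-silenced regions (67.4%), against 26.2% of retained regions. That share was not counted over all merged regions, of which 23.1% had LSD1 with MC_2580, 14.6% LSD1 in DMSO and 17.5% GFI1.

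The gap was smaller among regions alike in acetylation score and width. The median width was 3439 bases in RA-silenced and 5304.5 in retained regions. Within bands of the DMSO H3K27ac score and of width together, the LSD1 difference in DMSO was -14.0 points (-16.5 to -10.9) and the GFI1 difference -6.84 points (-9.80 to -3.43), a setting added after seeing the data. At DMSO H3K27ac scores of 1000 and over, LSD1 was called in DMSO in 52.4% of 21 RA-silenced regions (29.8 to 74.3%) and 56.5% of 7404 retained ones, and GFI1 in 42.9% (21.8 to 66.0%) and 51.6%. The number of such strong RA-silenced regions leaves a wide interval. When a peak had to cover at least 50% of the region, the GFI1 difference was -1.22 points (-1.64 to -0.535) and the LSD1 difference in DMSO -13.5 points (-14.8 to -12.0). GFI1 peaks had a median width of 752 bases, and many are too narrow to cover 50% of a region. That GFI1 value therefore says little about the gap.

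**Figure D5:**
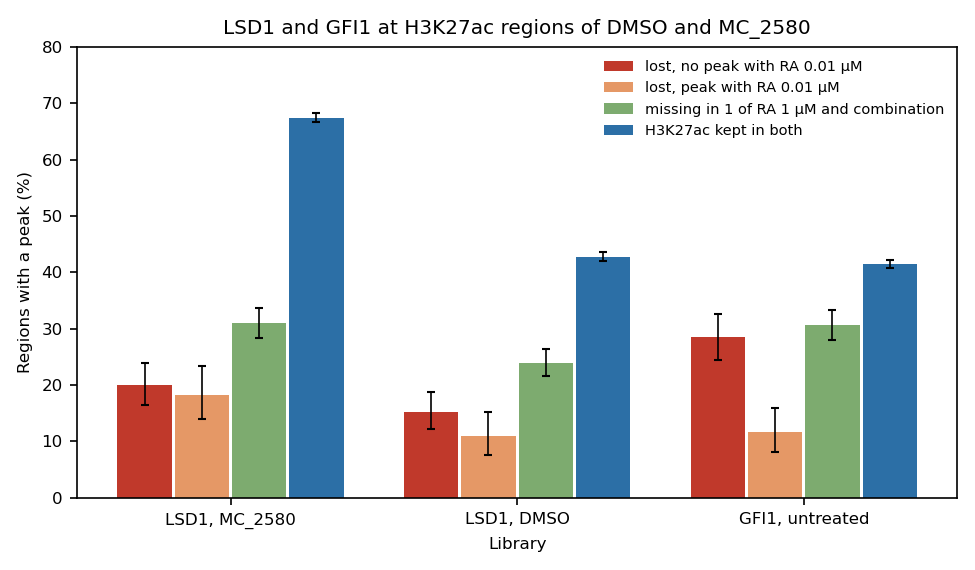
Share (%) of regions with a peak of LSD1 (MC_2580, DMSO) or GFI1 (untreated), with 95% exact binomial intervals. The bars stand for RA-silenced regions without (red) and with (orange) a low-dose H3K27ac peak, the 1210 regions that lacked a peak in 1 of RA 1 µM and the combination (green), and retained regions (blue), which are highest in every group. GFI1 is more frequent in RA-silenced regions without a low-dose peak (28.5%) than with one (11.6%).

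LSD1 and GFI1 lay on partly the same regions. LSD1 was called with or without the inhibitor at 169 regions, in both lists at 85, with MC_2580 only at 64 and in DMSO only at 20. The 85 are 81.0% of the 105 called in DMSO, against 98.0% in retained regions, a difference of -17.0 points (-25.6 to -10.6). The LSD1 list of MC_2580 starts at a higher score than that of DMSO, and the part of this in the difference was not tested. GFI1 shared 89 of its 171 regions with LSD1 (52.0%), against 86.8% of the GFI1 regions among retained ones, a difference of -34.8 points (-42.2 to -27.3). Without GFI1, LSD1 was called in 13.4% of RA-silenced and 55.3% of retained regions. The median distance between peak and region centres was 595.5 bases for LSD1 with MC_2580, 705 for LSD1 in DMSO and 706 for GFI1. Such distances were not measured in other regions, so these are a description only. GFI1 was called at 28.5% of the 485 regions without a low-dose H3K27ac peak and 11.6% of the 284 with one, a difference of 16.8 points (11.1 to 22.1). For LSD1 in DMSO the shares were 15.3% and 10.9%, a difference of 4.34 points (-0.745 to 9.01).

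H3K4 peaks were called in DMSO more often in RA-silenced regions with LSD1 than in those without. H3K4me1 was called in DMSO in 98.2% of the 169 regions with LSD1 and 68.0% of the 600 without, H3K4me2 in 55.6% of those with and 21.2% of those without it, and H3K4me3 in 37.3% of those with and 9.83% of those without it. The differences were 30.2 points (25.3 to 34.2) for H3K4me1, 34.5 points (26.2 to 42.4) for H3K4me2 and 27.4 points (20.0 to 35.2) for H3K4me3. LSD1 in DMSO was called in 8.82% of RA-silenced regions of 2000 to under 4000 bases and in 22.2% at 4000 and over. The part of width in these differences was not tested, and the same split was not counted in retained or all merged regions. H3K4me2 was kept in the combination in 90.4% of 94 regions with LSD1 and 61.4% of 127 without, a difference of 29.0 points (17.9 to 38.8), and of 13.6 points (3.91 to 22.9) within bands of the DMSO score. With RA at 1 µM it was kept in 75.5% of those with and 49.6% of those without LSD1, a difference of 25.9 points (13.1 to 37.4), and of 9.28 points (-1.27 to 20.7) within bands, which includes 0. The median H3K4me2 score in DMSO was 225 in regions with LSD1 and 96.9 in those without. No such gap was detectable for H3K4me3. It was kept with RA at 1 µM in 69.8% of 63 regions with and 72.9% of 59 without LSD1, a difference of -3.04 points (-18.6 to 12.9), and in the combination in 85.7% of those with and 81.4% of those without, or 4.36 points (-8.93 to 17.8). Both intervals include 0 and are wide.

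New H3K4me2 with MC_2580 appeared in 44.0% of 75 RA-silenced regions with LSD1 and 14.0% of 473 without, a difference of 30.0 points (18.8 to 41.7). New H3K4me3 appeared in 40.6% of 106 with and 14.6% of 541 without, or 26.0 points (16.5 to 35.9). Retained regions had new H3K4me2 in 56.0% with LSD1 and 23.7% without, and new H3K4me3 in 55.2% with and 21.7% without. Whether these gaps differ between RA-silenced and retained regions was not tested. In the combination new H3K4me2 appeared in 16.0% and 4.44% of the RA-silenced regions with and without LSD1, a difference of 11.6 points (4.58 to 21.6), and new H3K4me3 in 17.9% of those with and 4.62% of those without, or 13.3 points (6.81 to 21.8). With RA at 1 µM new H3K4me2 appeared in 6.67% of those with and 3.38% of those without LSD1, a difference of 3.28 points (-1.02 to 11.4), and new H3K4me3 in 8.49% of those with and 3.88% of those without, or 4.61 points (0.182 to 11.6).

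LSD1 in both lists together with GFI1 was found at 55 RA-silenced regions (7.15%), less often than in retained regions (27.3%). The highest-ranked of the 55 were the regions already named on chromosomes 8, 20 and 6 and chr19:61472370-61477461. At that region on chromosome 19, H3K27ac scored 1275 with MC_2580 and 680 in DMSO, LSD1 725 with MC_2580 and 553 in DMSO, and GFI1 229. H3K4me3 was called there with MC_2580 (242) and in the combination (62.1) and not in DMSO, RA at 0.01 µM or RA at 1 µM. The 3 highest GFI1 scores in RA-silenced regions were 617, 600 and 546. The first, chr16:44945567-44947074, had H3K4me3 in all 5 conditions and no H3K4me1, H3K4me2 or LSD1 peak. The second, chr9:116041902-116044268, had a weak H3K4me1 peak with MC_2580, RA at 1 µM and the combination and no LSD1. The third, chr1:176841570-176846143, had LSD1 at 1386 with MC_2580 and 3100 in DMSO and H3K4me1 in all 5 conditions, with H3K4me3 called with MC_2580 (348) and in the combination (154) only. The highest GFI1 score in each RA-silenced region with a peak had a median of 81.9. The median over all single peaks of the GFI1 list was 72.7, a different measure.

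RA-silenced regions lay near one another more often than retained regions lay near them. Another RA-silenced region was within 50 kb of 17.4% of RA-silenced and 7.23% of retained regions, a difference of 10.2 points (7.65 to 13.1). The nearest retained region lay at a median of 20602 bases, and 69.1% had one within 50 kb, against 76.9% of retained regions for their own nearest. The nearest of 5122 regions with the opposite pattern, an H3K27ac peak with RA at 1 µM and in the combination and none with MC_2580 or in DMSO, was within 50 kb of 16.3% of RA-silenced and 34.2% of retained regions, a difference of -17.9 points (-20.5 to -15.0). Within 1 kb of an RA-silenced region lay an H3K27ac peak of the RA 1 µM list at 61 and of the combination list at 57, so that some missing calls sit beside a call. Another RA-silenced region lay within 1 kb of 27 of the 769. Joining H3K27ac peaks within 1 kb gave 598 regions.

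Of the windows of 100 kb, 650 held 1, 50 held 2 and 5 held more. The window with the most, chr22:48300001-48400000, held 6, all with an H3K27ac peak at the low dose and 3 without any H3K4 peak. Its H3K27ac peaks numbered 12 in DMSO, 17 with RA at 0.01 µM, 2 at 1 µM, 3 in the combination and 10 with MC_2580, and it held no retained region. The window chr22:47400001-47500000 held 4, again all with a low-dose peak. Chromosome 22 as a whole had 35 RA-silenced regions, 6.82% of its regions with an H3K27ac peak in MC_2580 and DMSO, and 15 of the 35 lacked every H3K4 mark. On chromosome 19 the share was 1.17% and on X 1.27%.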

How the data were processed

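Peak lists of 23 ChIP-seq libraries were used, 1 per antibody and condition, and the 2 inputs were not used here. The score of each peak is the authors' deposited value. Per the submitters' processing notes, the tools included Bowtie 1.0.1 and MACS 1.4.1, with hg18. A start below 0 in 8 peaks was set to 0. Overlaps of at least 1 base were computed with Python 3.11.15 and NumPy 2.4.6, and tested on simulated lists in which 800 of 800 planted regions were recovered. Shares have Clopper-Pearson intervals and differences of shares Newcombe intervals, both 95% and from SciPy 1.17.1. Differences within bands were weighted by the RA-silenced regions' band sizes. A mark counted as kept where a region with its DMSO peak had one in the treated list, and as new where a region without one did. LSD1 regions had an LSD1 peak with MC_2580 or in DMSO. With 1 library per group no p-value is given.

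Named regions were taken by a rule. The first were the 10 with the highest lower score of H3K27ac with MC_2580 and in DMSO. By the same rank, 5 were taken with H3K4me1 in MC_2580 and DMSO and in neither RA at 1 µM nor the combination. For H3K4me3 so placed 3 were taken, and for LSD1 in both lists with GFI1 5. The others were the 3 widest, the 3 with the highest GFI1 score, and the 3 windows of 100 kb with the most regions. Not every one is printed. The regions, lists and comparisons were chosen with earlier results of these data known. Alternatives were minimum scores, lists of equal length, coverage of at least 50%, joining within 1 kb, merging without the low-dose list, narrowed H3K4 peaks, autosomes only, and bands of H3K27ac score and of width. Bands of a mark's own score, bands of score and width together, RA-silenced regions without a low-dose peak, and H3K4me1-marked regions only were added after seeing the data.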

Additional observations from a re-analysis of the deposited data

How the results depend on the processing

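The number of RA-silenced regions moved by more than 1.5 times under 3 settings. It was 238 with a minimum score of 100 for MC_2580 and DMSO only, 1523 with lists of equal length and 1213 with at least 50% of a region covered. The other settings gave 530 to 845. Narrowing the H3K4 peaks could not change the LSD1 and GFI1 differences, which repeat the main values there. All 104 alternative values of the 8 differences between RA-silenced and retained regions, these included, stayed below 0 with their intervals. With RA at 1 µM they ran from -17.0 to -5.67 points for H3K4me1, -51.5 to -17.2 for H3K4me2 and -30.0 to -17.8 for H3K4me3. In the combination they ran from -9.67 to -2.98, -37.8 to -14.2 and -16.9 to -10.5 points, for LSD1 in DMSO from -30.1 to -13.5 and for GFI1 from -20.1 to -1.22. The -1.22 came from the setting of at least 50% coverage, which many GFI1 peaks are too narrow to meet. Within bands of the DMSO H3K27ac score the LSD1 difference was -16.4 and the GFI1 difference -11.0 points. No paired analysis was possible because each antibody and condition had 1 library. Depth is unknown, so a missing peak cannot be told from one below the calling threshold, and RA-silenced regions hold many peaks near it.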
